A study of Mus musculus with 4 samples.

Results

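The Hoxb cluster genes Hoxb1 to Hoxb9 were examined in 4 mouse neural stem cell (NSC) lines. The 9 genes were taken by name from 27634 genes named in the single-cell tables of the lines. A gene was counted as captured in a cell when its value was above 0, which means at least 1 read. Of the 9 genes, CN4 and XN1 had reads of all 9, XN4 of 8, and the KN1 table listed 8, with Hoxb1 not listed.

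All 4 NSC lines were derived from 129/Sv mouse epiblast stem cells (EpiSCs), the cultured counterpart of the late epiblast, and were grown with EGF and FGF2, each at 10 ng/ml. XN4 and XN1 were made and kept with 10 µM XAV939, a tankyrase inhibitor that lowers Wnt signaling, and the EpiSC medium also held this antagonist. The XAV939 given to XN1 came from a supplier whose product formed crystals in the medium, unlike that given to XN4. KN1 received no Wnt agent, and CN4 received 2 µM CHIR99021, a GSK3 inhibitor that raises Wnt signaling. Each line is 1 derivation and was sequenced as 1 BD Rhapsody whole-transcriptome library, so the effect of the culture condition cannot be told apart from that of the line or of the library, and no test between lines was possible. The values are reads, not molecules, and the 95% intervals given here are exact binomial or Poisson intervals that cover counting error only. Because copies of 1 molecule made by PCR are not independent, the intervals of summed reads are too narrow. Poisson limits of a count of cells are too wide where the count is a large share of the cells. There, an interval of a ratio that includes 1 does not show that the ratio is 1.

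Hox genes encode homeodomain transcription factors that lie in 4 clusters and give cells along the body axis their position. Within a cluster, the genes toward the 3′ end (Hoxb1 at one end of the Hoxb cluster) are used from the hindbrain backward, and those toward the 5′ end (Hoxb9 and Hoxb13) start farther back in the spinal cord. Wnt signaling, retinoic acid, FGF and the Cdx factors are known inputs to the clusters, and Polycomb proteins keep them closed where they are silent. By the boundaries used for the embryonic nervous system, Hoxb1 to Hoxb4 are hindbrain class genes, Hoxb5 and Hoxb6 cervical spinal cord class genes, and Hoxb7 to Hoxb9 thoracic spinal cord class genes.

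The 9 genes lie on the plus strand of chromosome 11 of the mouse GRCm38 build and span 96.8 kb. Hoxb9 occupies chr11:96271457-96276595, Hoxb8 chr11:96281905-96285315 and Hoxb7 chr11:96286623-96290162. Hoxb6 occupies chr11:96292476-96301569 and Hoxb5 chr11:96303336-96306121. Hoxb4 lies at chr11:96318267-96321638, Hoxb3 at chr11:96323326-96347930, Hoxb2 at chr11:96350525-96354012 and Hoxb1 at chr11:96365752-96368256. Hoxb13, the remaining Hoxb gene, lies 74.0 kb beyond Hoxb9. The antisense gene Hoxb5os overlaps Hoxb6 and Hoxb5, Hoxb3os overlaps Hoxb3 and Hoxb2, and Gm11536 lies across Hoxb3. Whether the counting used strand is not given in the sources used here, so reads of these genes and of their antisense partners cannot be told apart.

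The RefSeq table of promoter sequences (GRCm38.p6) matched 3 of the 9 members, 1 at the 3′ end of the cluster (Hoxb1), 1 in its middle (Hoxb4) and 1 near its 5′ end (Hoxb8). They are shown because no other member was matched, and they were not chosen by level. Hoxb1 was near 0 in CN4, XN1 and XN4 and was not listed in KN1, whereas Hoxb4 and Hoxb8 were captured in KN1 and CN4. Each line holds the 250 bases before the RefSeq start, on the plus strand, and capitals mark matches to the short motifs described next. Hoxb8 is chr11:96281655-96281904, Hoxb4 is chr11:96318017-96318266 and Hoxb1 is chr11:96365508-96365757.
Hoxb8: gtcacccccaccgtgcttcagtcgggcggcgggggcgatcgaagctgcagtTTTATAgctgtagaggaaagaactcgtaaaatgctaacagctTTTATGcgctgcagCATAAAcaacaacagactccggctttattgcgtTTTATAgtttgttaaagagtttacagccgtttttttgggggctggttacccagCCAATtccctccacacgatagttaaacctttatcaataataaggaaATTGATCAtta
Hoxb4: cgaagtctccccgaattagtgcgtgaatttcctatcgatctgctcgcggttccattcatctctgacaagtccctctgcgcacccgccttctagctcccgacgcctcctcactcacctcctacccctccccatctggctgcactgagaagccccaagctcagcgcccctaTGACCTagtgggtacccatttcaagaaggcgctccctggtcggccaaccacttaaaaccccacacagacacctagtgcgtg
Hoxb1: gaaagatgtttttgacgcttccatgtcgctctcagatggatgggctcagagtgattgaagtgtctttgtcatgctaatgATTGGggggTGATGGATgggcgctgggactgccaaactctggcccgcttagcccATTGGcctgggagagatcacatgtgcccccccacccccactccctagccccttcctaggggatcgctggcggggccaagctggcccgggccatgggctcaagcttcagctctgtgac

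Motifs were searched on both strands of 27025 promoters of the same length. TTTATG, a core read by Cdx factors, matched Hoxb8 at 2 places and occurred in 11.1% of all promoters. TATAAA also matched Hoxb8 at 2 places and occurred in 13.0%. CCAAT matched Hoxb8 once and Hoxb1 at 2 places, and occurred in 34.5%. TGATNNAT, a joint HOX and PBX motif, matched Hoxb8 and Hoxb1 once each and occurred in 7.91%. AGGTCA, the short repeat unit bound by retinoic acid receptors, matched Hoxb4 and occurred in 13.8%. CTTTGA, the core of TCF/LEF sites, matched none of the 3 and occurred in 14%, and TGACAG, a MEIS motif, matched none and occurred in 16%. A match is a run of letters and not a shown site, and a promoter without one may still be bound.

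The tables of all reads held 8741 cells of XN4, 14452 of XN1 and 18157 of CN4, with medians of 12615, 5981.5 and 9173 reads per cell. KN1 was given only as a normalized table of 3975 cells, with a median of 5862 reads and 833 genes per cell. The KN1 library repeated each captured gene more often, with 7.39 reads per gene and cell against 2.403 in the normalized table of CN4, so that its cells held fewer genes at a given number of reads. Between 37 and 320 cell indices, the bead barcodes that name a cell, occurred in both libraries of a pair. NSC markers were checked against the labels. CN4 had 14 of 14 markers in at least 5% of cells, KN1 13 and XN1 12, but XN4 only 8. The summed level of the 14 markers was 9202 RPM (reads per 1000000 reads of the library) in CN4, 5413 in KN1, where the total lacks ribosomal and mitochondrial genes, 4470 in XN1 and 1478 in XN4. In XN4, Sox2 was captured in 0.56% of cells and Fabp7 in 0 of 8741 cells, whereas 5 of 9 mesoderm or mesenchyme markers were captured in at least 5% of cells, among them Col3a1 in 97.7% and Prrx1 in 86.7%. The markers of XN4 therefore go against its label as an NSC line, and values of the library labelled XN4 are given apart from those of XN1.

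The Hoxb genes were captured in CN4 and KN1 and were close to 0 in XN4 and XN1. In CN4, 94.4% of cells (94.0 to 94.7) held a read of at least 1 Hoxb gene, and in KN1 43.5% (41.92 to 45.03). In XN4 it was 0.458% (0.327 to 0.623) and in XN1 0.277% (0.198 to 0.377).

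**Figure D1:**
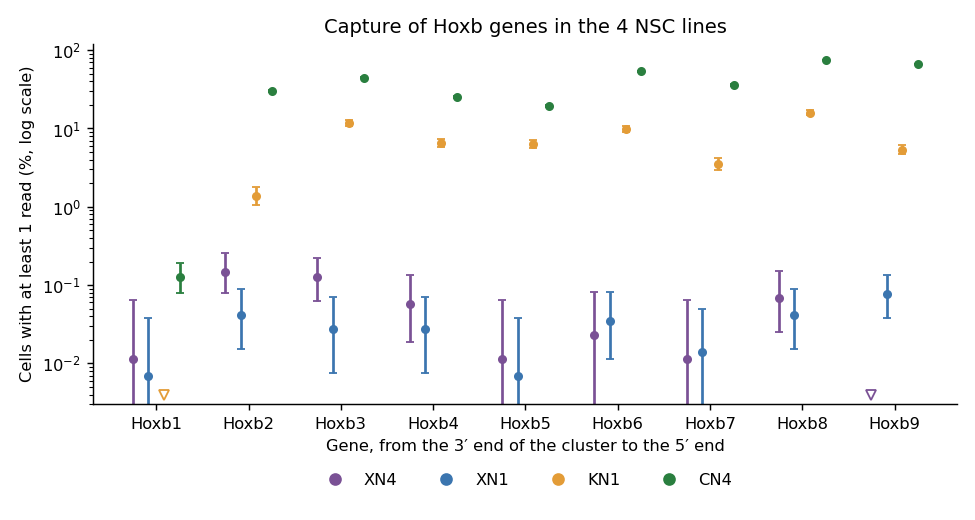
Cell fraction (% of cells with at least 1 read, log axis) of each Hoxb gene in the 4 lines, with bars for exact 95% binomial intervals. An open triangle marks a gene with 0 cells (Hoxb9 in XN4) or not listed (Hoxb1 in KN1); Hoxb2 to Hoxb9 lie between 19.3% and 74.8% in CN4, between 1.38% and 15.8% in KN1, and below 0.15% in both XAV939 lines.

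Among the hindbrain class genes, Hoxb1, known in the embryo for rhombomere identity, was captured in 23 of 18157 CN4 cells, 0.127% (0.0803 to 0.190), in 1 XN4 cell and in 1 XN1 cell. In CN4, 78.3% of its captures were of 1 read. The CN4 fraction was above those of Hoxb1 itself in XN4, 0.0114% (upper limit 0.0637), and XN1, 0.00692% (upper limit 0.0385), but within the range of 0 to 0.149% of the single Hoxb genes in XN4, so its level was too low to read. Hoxb2, which also patterns rhombomeres, was captured in 30.0% of CN4 cells (29.3 to 30.6), 1.38% of KN1 cells (1.04 to 1.8), 13 XN4 cells and 6 XN1 cells. Hoxb3 was captured in 44.5% of CN4 cells (43.8 to 45.2), 11.9% of KN1 cells (10.9 to 12.9), 11 XN4 cells and 4 XN1 cells. Hoxb4, which marks the posterior hindbrain and the cord behind it, was captured in 25.3% of CN4 cells (24.6 to 25.9), 6.62% of KN1 cells (5.86 to 7.43), 5 XN4 cells and 4 XN1 cells. Thus Hoxb2 was the least captured of the listed genes in KN1 but not in CN4.

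Of the cervical class genes, Hoxb5 was captured in 19.3% of CN4 cells (18.7 to 19.9), 6.42% of KN1 cells (5.67 to 7.22), 1 XN4 cell and 1 XN1 cell. Hoxb6 was captured in 53.7% of CN4 cells (53.0 to 54.4), 9.94% of KN1 cells (9.02 to 10.9), 2 XN4 cells and 5 XN1 cells. The cervical class was therefore split in CN4, with Hoxb5 the lowest of Hoxb2 to Hoxb9 and Hoxb6 below only Hoxb8 and Hoxb9.

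Of the thoracic class genes, Hoxb7 was captured in 35.8% of CN4 cells (35.1 to 36.5), 3.52% of KN1 cells (2.97 to 4.14), 1 XN4 cell and 2 XN1 cells. Hoxb8 was captured in 74.8% of CN4 cells (74.1 to 75.4), 15.8% of KN1 cells (14.7 to 17), 6 XN4 cells and 6 XN1 cells. Hoxb9, the most 5′ member and a gene of the thoracic cord and motor columns, was captured in 66.3% of CN4 cells (65.6 to 67.0), 5.33% of KN1 cells (4.66 to 6.08), 0 of 8741 XN4 cells and 11 XN1 cells. The count of 0 in XN4 allows a fraction of up to 0.0343% by the floor of 3 cells, and of 0.0422% by the exact binomial limit. Hoxb8 was the most captured member in both CN4 and KN1, whereas Hoxb9 was next to it in CN4 but below 5 other members in KN1.

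Reads per capturing cell were higher for the more captured genes in CN4. A CN4 cell with Hoxb9 held a mean of 4.29 reads of it, with Hoxb8 3.63 and with Hoxb6 2.66, whereas the other genes from Hoxb2 to Hoxb7 held between 1.53 and 1.95. In CN4, 65.1% of captures of Hoxb5 but 23.4% of those of Hoxb8 were of 1 read. In KN1 the means lay between 5.18 and 6.13 reads for all 8 genes, and between 16.9% and 29.1% of captures were of 1 read, so that the genes did not stand apart in this respect as they did in CN4.

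Levels were compared between genes per kilobase of merged exons, as RPM per kilobase in the normalized tables, which hold 3448 cells of CN4 and the same 3975 of KN1. Because intronic reads were also counted, exon length is a rough divisor. Whether the reads of a gene grow with its exon length in these libraries was not tested. In CN4, Hoxb8 stood at 130.2 (127 to 133) and Hoxb9 at 129 (127 to 132), intervals that overlapped. Hoxb6 followed with 89.8, Hoxb7 with 50.2 and Hoxb3 with 26.3, none of them overlapping its neighbour. Hoxb4 at 21.1 and Hoxb2 at 19 overlapped, and Hoxb5 was the lowest with 12.6. The genes of the 5′ part of the cluster, from Hoxb6 to Hoxb9, were thus higher per length than those of the 3′ part, from Hoxb2 to Hoxb5. By RPM not divided by length this order did not hold, with Hoxb3 at 112 above Hoxb7 at 77.6. Nor did it hold by cell fraction, with Hoxb3 at 44.5% and Hoxb7 at 35.8% of all CN4 cells. The order thus rests on the division by length.

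In KN1, Hoxb8 at 46.1 RPM per kilobase (44.5 to 47.7) and Hoxb6 at 41.5 (39.8 to 43.2) were the highest and did not overlap. Hoxb3 followed with 24.7, and Hoxb4 with 19.9. The interval of Hoxb7 at 18.3 overlapped those of Hoxb4 and of Hoxb5 at 17.4. Hoxb9 stood at 15.5 and Hoxb2 at 2.96. Per kilobase, Hoxb9, next to the highest in CN4, was thus below all but Hoxb2 in KN1. By RPM not divided by length, Hoxb9 at 40.0 stood above Hoxb7 at 28.3 in KN1, and Hoxb3 at 105 above Hoxb6 at 81.5.

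**Figure D2:**
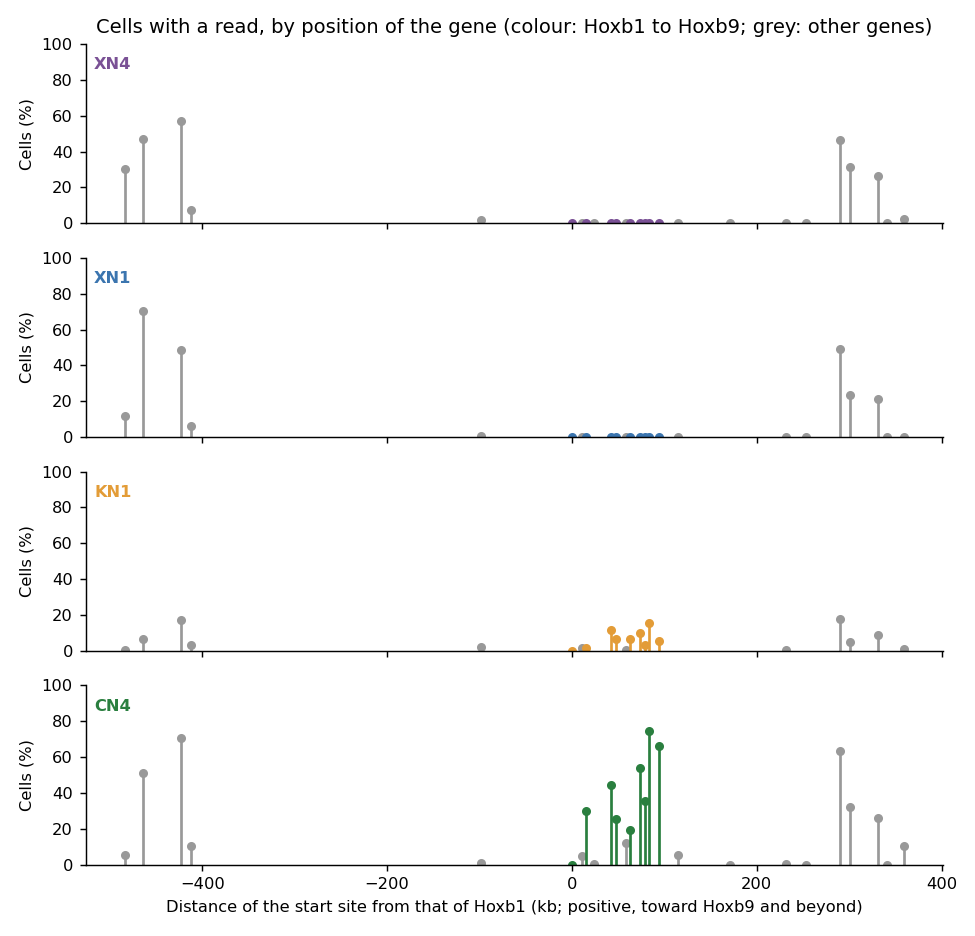
Cell fraction (% of cells with at least 1 read) of the Hoxb genes (colour) and of other genes of the locus (grey) in each line, against the distance of the gene's start from that of Hoxb1 in kb. The Hoxb genes stand between 19.3% and 74.8% in CN4, Hoxb1 aside, and at the base line in XN4 and XN1, where grey genes on both sides of the cluster, such as Cbx1 at 57.2% and 48.3%, are captured.

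The make-up of the Hoxb reads differed accordingly. Of 13407 Hoxb reads of KN1, Hoxb8 gave 25.0%, Hoxb3 21.6%, Hoxb6 16.8% and Hoxb9 8.23%. Of 27487 Hoxb reads of CN4 in the normalized table, Hoxb8 gave 28.6%, Hoxb9 27.8%, Hoxb6 14.7% and Hoxb3 9.35%. Hoxb2 gave 2.13% in KN1 and 5.54% in CN4, and Hoxb7 gave 5.82% and 6.48%. Summed over the cluster, the level was 486.4 RPM in KN1 and 1198 in CN4.

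CN4 was then set against the XAV939 lines. Against XN4, the ratio of cell fractions was 202 (118 to 379) for Hoxb2, 354 (198 to 709) for Hoxb3, 442 (189 to 1361) for Hoxb4 and 1089 (500 to 2969) for Hoxb8. Hoxb9 was at least 1933-fold higher in CN4, with the 0 cells of XN4 taken as a floor of 3 cells, or 1572-fold against the exact 95% upper limit of 0 cells. Hoxb5, Hoxb6 and Hoxb7 were captured in only 1 or 2 XN4 cells, and their ratios of 1687, 2348 and 3133 had lower limits of 303, 650 and 562. Against XN1 the ratios ran from 722 (331 to 1968) for Hoxb2 to 2790 for Hoxb5, which rests on 1 XN1 cell, with lower limits between 331 and 827. XN4 had more reads per cell than CN4 but fewer genes, with medians of 2665 and 3095, and XN1 had fewer of both, with a median of 2379 genes. The part of depth in these ratios was not tested.

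To set all genes side by side, cells of the normalized tables were thinned to 3200 reads each, which kept 3384 cells of XN4, 3129 of XN1, 3396 of KN1 and 3158 of CN4. Genes captured in at least 1% of the thinned cells of either line were compared, and called where the fractions differed at least 2-fold. Hoxb1 entered no comparison, and the other 8 entered each that involved CN4 or KN1. All 8 were called higher in CN4 than in XN4 (19.1% of all genes) and than in XN1 (7.93%), and higher in KN1 than in XN4 (9.18%) and than in XN1 (6.91%). These calls were fixed by the filter and support nothing: the members passed it through CN4 or KN1 alone, and not being listed in the normalized tables of XN4 and XN1 they were taken there at the floor of 3 cells. Between XN1 and XN4 none of the 9 could be compared.

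KN1 and CN4 differed in a gene-dependent way. By thinned cell fraction, 7 of 8 members were called higher in CN4, but so were 62.9% of all genes, since thinned KN1 cells held a median of 766 genes and thinned CN4 cells 1846. The ratio of CN4 to KN1 was 15.7 for Hoxb2, 12.4 for Hoxb9, 6.47 for Hoxb7, 4.16 for Hoxb8, 3.96 for Hoxb6, 2.40 for Hoxb4, 2.35 for Hoxb3 and 1.65 for Hoxb5, beside a median of 2.56 over 11642 genes. The thinned fractions themselves were 16.6% in CN4 and 1.06% in KN1 for Hoxb2, and 9.12% and 5.54% for Hoxb5. For Hoxb8 they were 56.1% and 13.5%, and for Hoxb9 48.5% and 3.92%. Counting only cells with at least 2 reads, the fractions of all CN4 cells ran from 6.74% for Hoxb5 and 13.0% for Hoxb2 to 57.3% for Hoxb8, and those of KN1 from 0.981% for Hoxb2 to 13.0% for Hoxb8. In percentage points, the single fractions of CN4 thus moved more with thinning and with the threshold of 2 reads than those of KN1. By thinned fraction Hoxb3, Hoxb4 and Hoxb5 were at or below the median gene, and Hoxb2, Hoxb7 and Hoxb9 were more than 2-fold above it.

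By RPM, where the median gene stood at 1.10, 5 of 8 members were called higher in CN4 beside 23.4% of all genes. Hoxb9 stood at 8.32 (7.81 to 8.87), Hoxb2 at 6.41 (5.65 to 7.31), Hoxb8 at 2.83 (2.71 to 2.94), Hoxb7 at 2.74 (2.52 to 2.99) and Hoxb6 at 2.16 (2.06 to 2.28). Hoxb3 at 1.06 (1.01 to 1.123), Hoxb4 at 1.06 (0.983 to 1.15) and Hoxb5 at 0.721 (0.660 to 0.787) were not called, and no member was called higher in KN1, where 19.4% of all genes were.

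Another measure, chosen after the data were seen, divided the cells capturing a gene by all captures of the library, which counts a gene once per cell however many reads it has. By captures per 100000, 3 of 8 members were called higher in CN4 beside 23.1% of all genes: Hoxb2 at 6.49 (4.94 to 8.68), Hoxb9 at 3.97 (3.45 to 4.60) and Hoxb7 at 3.05 (2.56 to 3.66). Hoxb6 at 1.71 and Hoxb8 at 1.53 were above the median gene at 1.19, and Hoxb5 at 0.836 (0.719 to 0.974) was below it. The intervals of Hoxb3 at 1.13 (1.02 to 1.26) and Hoxb4 at 1.18 (1.02 to 1.36) included the median gene. Relative to the median gene, the order of the members was alike in the 3 measures in that Hoxb2, Hoxb7 and Hoxb9 were past 2-fold in each, Hoxb6 and Hoxb8 above the median in each, and Hoxb5 below it in each. Hoxb3 and Hoxb4 stood slightly below the median in each, but their intervals by RPM and by captures included it.

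**Figure D3:**
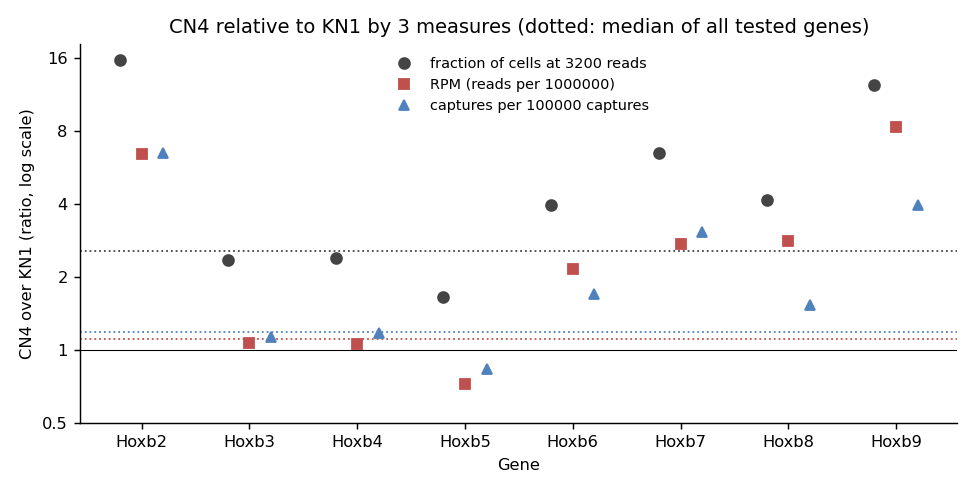
Ratio of CN4 to KN1 (log axis) for each Hoxb gene by 3 measures, thinned cell fraction, RPM and captures per 100000, each with the median of 11642 genes drawn as a dotted line. Hoxb2, Hoxb7 and Hoxb9 lie above the other members by all 3 measures except that Hoxb8 is level with Hoxb7 by RPM; Hoxb3, Hoxb4 and Hoxb5 lie at or below the medians of 2.56, 1.10 and 1.19.

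Next, the number of Hoxb genes per cell was counted. A CN4 cell held a mean of 3.50 and at most 8 of the 9 genes, with 83.9% of cells holding at least 2 and 31.2% at least 5. A KN1 cell held a mean of 0.610 and at most 6, with 13.3% holding at least 2. In the normalized table of CN4 the mean was 3.21, and after thinning the normalized cells to 3200 reads the means were 2.23 in CN4 and 0.521 in KN1. No XN4 or XN1 cell held more than 1.

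By class, 67.1% of CN4 cells held a hindbrain class gene, 59.8% a cervical class gene and 86.6% a thoracic class gene. All 3 classes were found together in 43.1% of CN4 cells, hindbrain class genes alone in 4.66% and thoracic class genes alone in 12.4%. In KN1 the shares were 18.3%, 15.2% and 22.4%, with all 3 together in 1.31%, hindbrain class genes alone in 10.4% and thoracic class genes alone in 13.7%. In both lines, then, single cells without hindbrain class but with thoracic class reads and cells of the opposite kind were found. Such cells cannot be told apart from cells that expressed the missing class without its capture. The shares are not at equal depth: in the normalized tables a cell held a mean of 2770 captures of all genes in CN4 and 938 in KN1. The part of this difference in the shares was not tested. Nor are the classes of equal size, and a class with more captured genes is found in more cells. The cervical class holds only Hoxb5 and Hoxb6, so the shares do not rank the classes.

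Capture depended on depth in both lines. Cells were ranked by total reads and divided into 20 strata. A Hoxb gene was captured in 76.1% of cells of the lowest CN4 stratum, with a median of 3453 reads, and in 100% of the highest, with 21381. Hoxb8 went from 38.0% to 95.9%, Hoxb9 from 33.3% to 94.9% and Hoxb5 from 6.61% to 39.9%. In KN1 any Hoxb gene went from 20.6% at 2008 reads to 81.8% at 18413. The fractions of all 8 genes thus moved with the reads of a cell.

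The spread of the number of genes over cells was set against the number obtained if the genes were captured independently within a stratum. In CN4 the variance was 3.35 beside 2.61, with more cells at both ends than under independence. Cells with no Hoxb gene were 5.64% (1024 cells) beside 2.37%, and cells with 6 or more were 14.3% beside 11.2%. In KN1 the variance was 0.690 beside 0.641, and cells with none were 56.5% beside 55.3%.

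**Figure D4:**
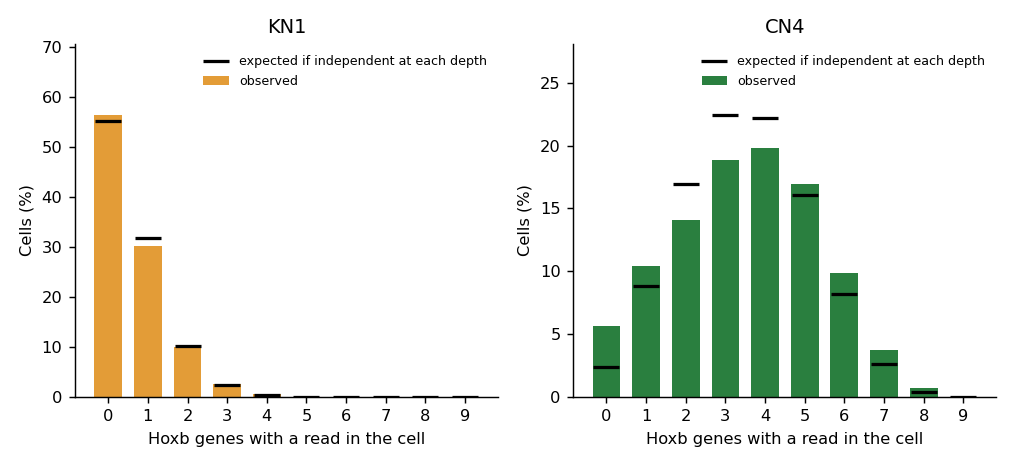
Share of cells (%) by the number of Hoxb genes with a read in CN4 and KN1 (bars), with the share under independent capture within 20 strata of total reads (dashes). In CN4 the bar at 0 genes stands at 5.64% with its dash at 2.37%; in KN1 the bar at 0 stands at 56.5% with its dash at 55.3%.

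Codetection of pairs was measured as the number of cells with both genes over the number for independent capture within the strata. In CN4 the 28 pairs of Hoxb2 to Hoxb9 had a median ratio of 1.06, and 27 were above 1, beside 54.3% of pairs with any other gene. The lower limit was above 1 in 22 of 28 pairs, beside 3.34% of 79752 pairs of a Hoxb gene with any other gene captured in at least 5% of cells. These shares are not like for like, since limits are narrower for genes in more cells. Hoxb2 to Hoxb9 were captured in 19.3% to 74.8% of CN4 cells, whereas the other genes start at 5%. The excess was small: Hoxb3 with Hoxb5 and Hoxb5 with Hoxb6 were the highest at 1.13, and Hoxb4 with Hoxb9 the lowest at 0.984. All 7 pairs of adjacent genes had a lower limit above 1. So did 4 of 6 pairs 2 apart, 4 of 5 pairs 3 apart and 3 of 4 pairs 4 apart. At 5, 6 and 7 apart it was 1 of 3, 2 of 2 and 1 of 1. The median was 1.08 for adjacent pairs and 1.07 for pairs 2 apart and 3 apart, and an effect of distance was not tested. The pair found in most cells was Hoxb8 with Hoxb9, in 10279 cells or 56.6%. Pairs of a Hoxb gene with a Hoxa gene had a median of 1.05 (72 pairs), with a Hoxc gene 1.06 (40 pairs), with a Hoxd gene 1.04 (32 pairs) and with a PBX, MEIS or PKNOX cofactor gene 1.00 (72 pairs). The lower limit was above 1 in 26 of 72 Hoxa, 21 of 40 Hoxc, 8 of 32 Hoxd and 2 of 72 cofactor pairs. The upper limit was below 1 in 2 Hoxc and 2 cofactor pairs. Whether Hoxb pairs differ from these was not tested. Genes share cells and depth, so the pairs are not independent. Doublets were not removed, and their part in the codetection was not tested.

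In KN1 the median ratio was 1.09, between 0.659 and 1.69, and 3 of 28 pairs had a lower limit above 1, beside 1.59% of 44640 pairs. These were Hoxb3 with Hoxb4 (1.35), Hoxb3 with Hoxb7 (1.55) and Hoxb5 with Hoxb9 (1.56). Here too the shares are not like for like. Some Hoxb genes, such as Hoxb2 at 1.38%, fall below the 5% of cells asked of the other genes. Most KN1 pairs were found in few cells, from 4 to 106, so that an excess of the size seen in CN4 was not detectable there.

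**Figure D5:**
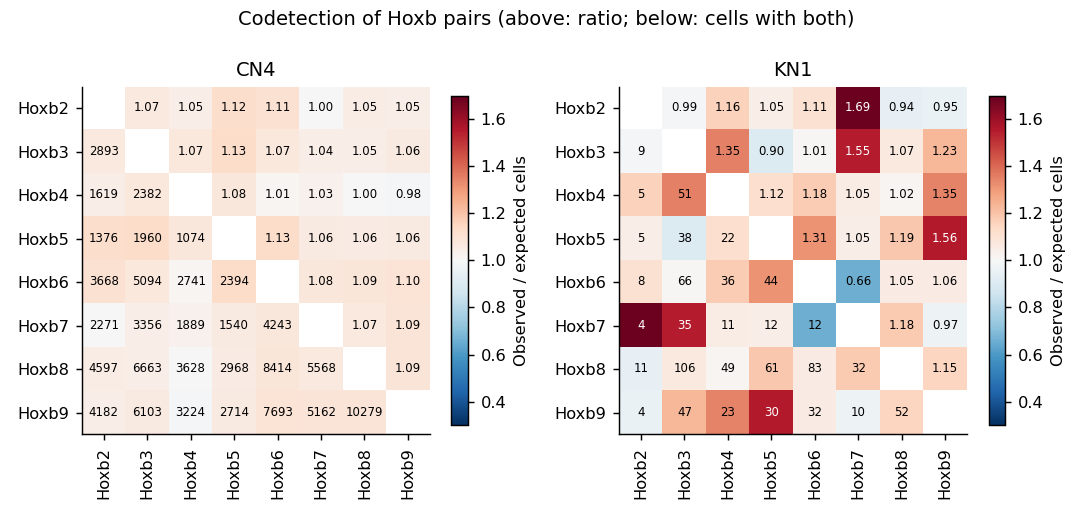
Codetection of the 28 Hoxb pairs in CN4 and KN1; the upper triangle gives observed over expected cells within 20 strata of total reads (colour scale) and the lower triangle the number of cells with both genes. CN4 ratios lie between 0.984 and 1.13, and KN1 ratios between 0.659 and 1.69 with far fewer cells per pair.

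The Hoxb genes were also examined in cells with and without reads of cell cycle genes: Mki67 and Top2a, which mark proliferating cells, and Hmgb2, high in S to M phase. In CN4, Hoxb5 was captured in 23.1% of cells with Mki67 and 13.5% of cells without, but these cells had medians of 10288 and 7808 reads. As the ratio of cells with Mki67 to all cells, Hoxb5 stood at 1.20 without strata. Within strata the ratios to all cells of the 8 genes ran from 0.994 to 1.09 for Mki67, from 0.985 to 1.06 for Top2a and from 0.988 to 1.04 for Hmgb2. These genes were captured in 60.4%, 65.9% and 71.5% of CN4 cells, which keeps a ratio to all cells close to 1. Counts that are so large a share of the cells also make the Poisson limits too wide. Only Hoxb5 had a lower limit above 1, with Mki67 at 1.09 (1.05 to 1.13) and Top2a at 1.06 (1.02 to 1.10), beside 18.2% and 15.7% of all genes, and no member had one with Hmgb2, beside 14.9%. In KN1 the ranges were 0.941 to 1.14, 0.842 to 1.09 and 0.830 to 1.42, and Hoxb6 with Hmgb2 had a lower limit above 1, at 1.23 (1.03 to 1.45), beside 5.0% of all genes.

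The 1024 CN4 cells without a Hoxb read were set against all CN4 cells, a description made after the share of such cells was seen. They were shallower, with a median of 5597 reads beside 9173 in all CN4 cells, and held 16.9% mitochondrial reads beside 14.7%. A gene's capture in them was set against that of all CN4 cells of the same strata of reads. Those include the 1024 cells themselves, which draws the ratios toward 1. For genes captured in most cells, the Poisson limits are also too wide. Over 12404 genes the median ratio was 0.984, and 11.2% of genes had an upper limit below 1 and 6.05% a lower limit above 1. Genes of the other Hox clusters were among the low ones: Hoxc9 stood at 0.222, Hoxa10 at 0.282, Hoxa9 at 0.305, Hoxd9 at 0.402 and Hoxc8 at 0.468. The 3′ genes Hoxa2, Hoxa3 and Hoxa4 stood between 0.821 and 1.13 and Hoxc4 at 0.925, with intervals that included 1, whereas Hoxa5 stood at 0.690 (0.614 to 0.773) and Hoxc5 at 0.526 (0.404 to 0.675). Within the cluster, Hoxb5os stood at 0.342, Hoxb3os at 0.765 (0.495 to 1.13) and the noncoding gene Gm53 at 0.430 (0.235 to 0.721). Hoxb5os and Hoxb3os overlap Hoxb genes whose reads these cells were chosen to lack, so their values may be fixed in part by that choice. Gm53 overlaps none of the members.

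Among genes higher in these cells were Sox10, a neural crest and oligodendrocyte lineage factor, at 2.36 (1.86 to 2.94), and the Notch ligand gene Dll3 at 2.02 (1.75 to 2.31). Of the other oligodendrocyte precursor and neural crest genes, Ets1 at 1.67 (1.496 to 1.86), Pdgfra at 1.53 (1.02 to 2.19), Sox8 at 1.22 (1.13 to 1.33) and Olig1 at 1.08 (1.01 to 1.16) were higher, and Olig2 stood at 1.07 (0.995 to 1.14). Markers of other cell types also stood apart in these cells. The mesenchyme genes Col3a1 at 2.09 (1.29 to 3.20) and Col1a1 at 1.96 (1.26 to 2.92) and the neuron genes Elavl3 at 1.85 (1.29 to 2.57) and Tubb3 at 1.77 (1.19 to 2.53) were higher. Prrx1, the mesenchyme gene most widely captured in CN4 (38.8% of cells), stood at 0.943 (0.830 to 1.07), and the other neuron markers Dcx, Elavl4, Rbfox3, Snap25 and Syt1 also had intervals that included 1. The astrocyte genes Gfap at 0.525 (0.321 to 0.810), Aqp4 at 0.445 (0.179 to 0.917), Gja1 at 0.767 (0.686 to 0.855) and Slc1a2 at 0.897 (0.808 to 0.993) were lower, and S100b at 1.13 (0.917 to 1.37) and Aldoc at 1.01 (0.919 to 1.11) were not. Of the 14 NSC markers, Sox3 at 1.42 (1.31 to 1.54) and Hes5 at 1.29 (1.15 to 1.45) were higher. Sox1 at 0.670 (0.561 to 0.794), Hes1 at 0.767 (0.679 to 0.864) and Sox9 at 0.861 (0.787 to 0.941) were lower, as were Msi1, Sox2, Nes and Slc1a3 at 0.892 to 0.924, and the intervals of Vim, Fabp7, Pax6, Zeb2 and Notch1 included 1. Of the cell cycle genes, Mki67 at 0.871 (0.789 to 0.959) and Hmgb2 at 0.913 (0.836 to 0.994) were lower. The interval of Top2a at 0.924 (0.842 to 1.01) included 1. The part of these cells in the result was not tested. The 374 CN4 cells with a Sox10 read had Hoxb9 in 28.9% of cells, beside 67.1% in the others, a ratio to all cells of 0.498 (0.408 to 0.601) within strata. Of the 8 genes, 6 had an upper limit below 1, beside 11.9% of all genes, whereas Hoxb7 at 0.873 (0.708 to 1.06) and Hoxb4 at 1.05 (0.839 to 1.29) did not. The share of all genes includes genes captured in fewer cells, whose limits are wider. Of these 374 cells, 78 are among those without a Hoxb read, where Sox10 was already high. The low Hoxb capture is thus in part the same association turned round and is not a separate result. For Olig2, Sox2, Pax6 and Nes the median ratios of the 8 genes in CN4 lay between 0.985 and 1.01, but Olig2, Sox2 and Nes were captured in most CN4 cells, which keeps a ratio to all cells close to 1. In KN1, Hoxb7 at 1.41 (1.09 to 1.796) and Hoxb8 at 1.14 (1.003 to 1.30) had a lower limit above 1 with Olig2, beside 4.1% of all genes. In cells with a read of Sox10 or Dll3 (1703 cells), 14.3% held no Hoxb gene beside 9.53% under independence, and in the others 4.75% beside 1.93%. The split uses genes chosen for their values in these cells, so it is given as a description alone. With strata of the number of genes detected, chosen after the data were seen, cells without a Hoxb gene were 5.64% of CN4 cells beside 2.39%.

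The few Hoxb reads of the XAV939 lines were examined singly. XN4 had 40 such cells, each with 1 read of 1 Hoxb gene. XN1 had 40 cells, and 39 of their 40 captures were of 1 read. Of the 40 XN1 cells, 7 carried an index that also occurred in CN4, and in 6 of the 7 the CN4 cell of that index held the same Hoxb gene. Since Hoxb2 to Hoxb9 were each captured in 19.3% to 74.8% of all CN4 cells, such matches also arise with no link between the cells. A Hoxb read was found in 2.19% (0.884 to 4.45) of the 320 XN1 cells whose index occurred in CN4, and in 0.234% (0.161 to 0.328) of the other 14132. In XN4, 0 of the 40 cells carried an index of CN4.

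Other genes of the locus were examined in the same way. Hoxb13, the most 5′ gene, had reads in 1 CN4 cell and 2 XN4 cells. Hoxb5os was captured in 11.9% of CN4 and 0.755% of KN1 cells, and Hoxb3os in 5.13% and 1.66%. Gm53, a noncoding gene of the cluster, was captured in 5.40% of CN4 cells. Beyond the cluster, Skap1, the next listed protein-coding gene past Hoxb1, was captured in 0.498% to 2.0% of cells of the lines. Cbx1 was captured in 70.9% of CN4, 17.5% of KN1, 48.3% of XN1 and 57.2% of XN4 cells, so that Cbx1 was captured in the XAV939 lines as well.

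Paralogs of the Hoxb genes in the other clusters stood at other levels. Hoxa5 was captured in 58.7% of CN4, 18.7% of KN1 and 27.8% of XN1 cells, whereas Hoxc8 was captured in 47.9% of CN4 but 0.327% of KN1 cells, and Hoxd8 in 18.8% of XN4 cells. By RPM, 3 of 8 Hoxa, 5 of 5 Hoxc and 2 of 3 Hoxd paralogs compared were called higher in CN4 than in KN1 and 0 lower, beside 23.4% and 19.4% of all genes. By thinned fraction all 8, 5 and 3 were called higher, beside 62.9% of all genes. Of the Hoxa and Hoxd paralogs, only Hoxa2, Hoxa5, Hoxa7 and Hoxd8 passed the filter in KN1. The others compared, and all the Hoxc genes, passed it through CN4 alone, which favoured their calls. Nothing is read from these counts. Over the 4 lines, the genes closest to the summed Hoxb level, by Euclidean distance of log2 RPM with 1 added, were Nell2 (3.37), Sez6l (4.29), Nlgn1 (4.49), Hoxa7 (4.51) and Gm35040 (4.54). Nell2 stood at 246 RPM in CN4 and 147 in KN1, but at 1.66 in XN1 and 1.13 in XN4, beside 486.4 and 1198 for the summed Hoxb genes in KN1 and CN4. A distance over 4 points is only a loose description.

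The PBX, MEIS and PKNOX genes, whose proteins bind DNA with HOX proteins, were present in all lines. Meis1 was captured in 46.3% of CN4, 31.0% of KN1, 15.8% of XN1 and 55.4% of XN4 cells, and Meis2 in 45.02%, 39.4%, 11.5% and 8.52%. By RPM, 0 of 9 cofactor genes were called higher in CN4 than in KN1 and 5 lower, among them Meis1 and Meis2, beside 23.4% and 19.4% of all genes, whereas by thinned fraction 3 were called higher and 1 lower, beside 62.9% and 5.09%. Of the 14 genes listed as inputs to the Hoxb cluster, 10 could be compared. By RPM, 3 were called higher in CN4 than in KN1 and 1 lower (T), beside 23.4% and 19.4% of all genes. Among the 3 were Rara, a retinoic acid receptor gene, and Gbx2. By thinned fraction 7 were called higher and 1 lower, beside 62.9% and 5.09%. Gbx2 passed the filter through CN4 alone and T through KN1 alone, which favoured their calls. Cdx1 and Cdx4 had reads in at most 6 cells of a line, and Rarb, a receptor gene that retinoic acid induces, was captured in 17.1% of CN4, 5.53% of KN1, 21% of XN1 and 63.8% of XN4 cells. Of 17 Polycomb and trithorax genes, 16 could be compared, and by RPM 2 were called higher in CN4 than in KN1 and 3 lower. By thinned fraction 9 were called higher and 0 lower, beside the shares of all genes just given. Ezh2, the histone methyltransferase gene of Polycomb complex PRC2, was captured in 73.7%, 32.3%, 42.3% and 40.5% of cells of CN4, KN1, XN1 and XN4.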

How the data were processed

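The authors sequenced 1 BD Rhapsody whole-transcriptome library per NSC line and deposited, for XN4, XN1 and CN4, raw read counts per gene and cell (BD Rhapsody WTA Analysis Pipeline 1.12.1, GRCm38, GENCODE M19, intronic reads kept, per the file headers). A second deposited table per line, of a random subset of cells, held values on a natural log scale: the reads of a gene per 10000 reads of its cell, plus 1, without ribosomal and mitochondrial genes (Seurat 4.3.0, per the submitters' processing notes). KN1 was given only in this form.

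Log values were turned back into whole reads (tolerance 0.01), which equalled the counts of the same cells in every value compared. The XN4 normalized table lacked 33 genes with reads in at least 10 of its cells, 32 of them at its alphabetical end, and all 33 were left out of its comparisons. In XN4, XN1 and CN4, any other gene that a normalized table leaves out had reads in at most 9 of its cells (not checked in KN1), so calls against XN4 and XN1 take unlisted genes as low. A 2-fold difference was a call, and a fraction of 0 was taken as 3 cells. Gene coordinates are from the GENCODE M21 annotation of GRCm38. Python 3.11.15, NumPy 2.4.6, SciPy 1.17.1, pandas 2.3.3 and matplotlib 3.10.9 were used, and the calculations were checked on simulated data. The members and lists were chosen with earlier results of these data known. The genes named are the 9 members, listed genes of the locus, paralogs, cofactors, inputs, Polycomb, NSC and mesoderm lists, and the 5 nearest profiles; genes named in cells without Hoxb reads were chosen after their values were seen, apart from those on a list.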

Additional observations from a re-analysis of the deposited data

How the results depend on the processing

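Leaving aside the calls against XN4 and XN1, which the filter fixed, 44 values were recomputed for the main results. Of these, 25 moved by less than their counting interval or 1.5 times and 19 by more. None changed direction, but the cell fractions and means among them have no direction to change. Of 72 values for single genes, all of them cell fractions, 24 stayed within their interval and 48 did not. A change of direction could not occur among these. Requiring 2 reads for a capture gave a Hoxb gene in 0.0% of XN4, 0.00692% of XN1, 37.2% of KN1 and 82.0% of CN4 cells, beside 0.458%, 0.277%, 43.5% and 94.4%. Thinning the normalized cells to 3200 reads gave 40.8% in KN1 and 88.8% in CN4, with means of 0.521 and 2.23 genes per cell. Leaving out the deepest 5% of cells gave 41.4% in KN1, and the normalized cells of CN4 gave 93.0%. Leaving out cells whose index occurs in another library, chosen after the data were seen, gave 0.476%, 0.230%, 43.3% and 94.4% in XN4, XN1, KN1 and CN4. By captures per 100000, the members called higher in CN4 than in KN1 went from 7 to 3. With only genes in at least 5% of cells compared, members called higher in KN1 than in XN4 and in XN1 went from 8 to 5. The median codetection ratio in CN4 was 1.07 with 5 strata, 1.17 with none, 1.11 with 2 reads and 1.08 in the normalized cells, and in KN1 1.41 with none and 1.17 without the deepest 5% of cells. The median ratio for the cell cycle genes went from 1.01 to 1.08 in CN4 and from 1.03 to 1.37 in KN1 without strata. No paired analysis was possible because each line is 1 library, and no replicate could be left out. The cell fractions of XN4 and XN1 were not recomputed from thinned or normalized cells, since their normalized tables list no member.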
